A study of Rattus norvegicus with 6 samples.

Results

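The 40 genes described here act in G2 phase and mitosis: mitotic cyclins and kinases, kinesin motors, and genes of the spindle checkpoint, the centromere and cytokinesis. They were chosen by name from a list of such genes and not by their values, although earlier results of these data were known. All 40 were among the 40154 genes of the deposited count table and among the 14852 genes with enough counts to be tested. The cells were atrial fibroblasts of Sprague-Dawley rats, 1 to 3 days old, separated from atrial myocytes by selective adhesion. They received either a negative control siRNA (si-NC) or an siRNA to Gpd1l (si-GPD1L), and their poly(A) RNA was sequenced 24 h later in 3 libraries per group. All 6 libraries carry the treatment label Atrial differentiation. The labels do not say whether the libraries of a group came from separate cultures or animals, or whether the digit of each si-GPD1L name numbers replicates or different siRNAs, so p-values measure only the spread between these libraries, which may be technical.

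As background, a cell that has copied its DNA enters mitosis when cyclin B and CDK1 become active, and the spindle checkpoint then delays anaphase until every kinetochore is attached. The anaphase-promoting complex with CDC20 ends this delay, separase cuts the cohesin between the sister chromatids, and cytokinesis parts the daughter cells. Most genes of this programme are silent in resting cells and are switched on together late in the cycle, through promoters that carry a cell cycle genes homology region (CHR), which is read by MuvB complexes with B-MYB and FOXM1, and CCAAT boxes, which are read by NF-Y. Their mRNA is therefore widely used as a sign of dividing cells in cultured heart fibroblasts.

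None of the 40 mitosis genes passed the test between si-GPD1L and si-NC. With edgeR's quasi-likelihood test and Benjamini-Hochberg adjustment over all genes tested, 0 members had an adjusted p under 0.05, where 6.36% of all genes tested did, 4.03% of them higher and 2.33% lower in si-GPD1L. At an unadjusted p under 0.05 the count was 2 members, Espl1 and Mki67, where 22.4% of all genes passed. The normalised counts of the groups did not overlap for 3 members, Espl1, Top2a and Ube2c, all higher in si-GPD1L, where 29.0% of all genes tested did not overlap. DESeq2's Wald test and edgeR's exact test also called 0 of the 40. The siRNA target Gpd1l was itself not called (log2 fold change -0.31, adjusted p = 0.234 by edgeR's quasi-likelihood test). These counts therefore compare the labelled groups and not a known degree of Gpd1l loss.

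Promoters of 6 members that carry CHR or CCAAT letters are shown. Cdk1, Cdc20, Mki67 and Top2a had the smallest adjusted p or the highest TPM of their roles below. Ccnb1 was among the genes named by rule, and Espl1 had the smallest p of all members. Each sequence is the 200 bases before the annotated start in the RefSeq annotation of GRCr8, written along the gene's strand. Capitals mark every match to CHR or CCAAT. CHR was searched as TTTGAA or as TTCGAA. On the other strand TTTGAA reads as TTCAAA and CCAAT reads as ATTGG, while the letters of TTCGAA read the same on both.
Cdk1 (chr20:19265093-19265292, plus strand): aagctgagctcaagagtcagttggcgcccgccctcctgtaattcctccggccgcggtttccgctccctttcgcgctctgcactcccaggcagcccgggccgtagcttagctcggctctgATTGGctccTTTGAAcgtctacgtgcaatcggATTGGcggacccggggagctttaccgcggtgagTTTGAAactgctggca
Ccnb1 (chr2:33655226-33655425, minus strand): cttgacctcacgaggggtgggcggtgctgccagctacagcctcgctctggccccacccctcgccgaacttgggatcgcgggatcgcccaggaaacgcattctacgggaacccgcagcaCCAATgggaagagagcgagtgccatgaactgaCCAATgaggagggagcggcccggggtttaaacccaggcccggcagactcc
Cdc20 (chr5:137255800-137255999, minus strand): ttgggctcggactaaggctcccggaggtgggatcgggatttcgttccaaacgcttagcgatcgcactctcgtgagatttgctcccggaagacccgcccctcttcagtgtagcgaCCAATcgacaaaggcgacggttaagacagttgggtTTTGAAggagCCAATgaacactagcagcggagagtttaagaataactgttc
Mki67 (chr1:199952594-199952793, minus strand): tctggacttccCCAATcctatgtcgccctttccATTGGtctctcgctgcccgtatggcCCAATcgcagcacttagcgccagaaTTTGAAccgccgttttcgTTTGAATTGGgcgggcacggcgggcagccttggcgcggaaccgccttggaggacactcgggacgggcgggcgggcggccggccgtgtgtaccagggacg
Top2a (chr10:84473094-84473293, minus strand): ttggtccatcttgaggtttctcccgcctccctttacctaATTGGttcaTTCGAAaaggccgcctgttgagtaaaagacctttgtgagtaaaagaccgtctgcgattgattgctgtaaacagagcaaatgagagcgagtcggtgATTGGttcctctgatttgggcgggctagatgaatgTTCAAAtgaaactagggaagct
Espl1 (chr7:135302516-135302715, plus strand): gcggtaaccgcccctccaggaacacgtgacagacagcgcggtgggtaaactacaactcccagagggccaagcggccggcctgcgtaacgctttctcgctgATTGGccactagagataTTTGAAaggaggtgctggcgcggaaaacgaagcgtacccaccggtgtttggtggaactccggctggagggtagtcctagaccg
Cdk1 carried CHR matches 16 and 72 bases before its start and CCAAT matches 49 and 81 bases before it, and Cdc20 had its CHR match between 2 CCAAT matches. In Mki67 the CHR match 99 bases before the start shared 1 base with a CCAAT match on the other strand. Ccnb1 had 2 CCAAT matches and no CHR match.

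**Figure D1:**
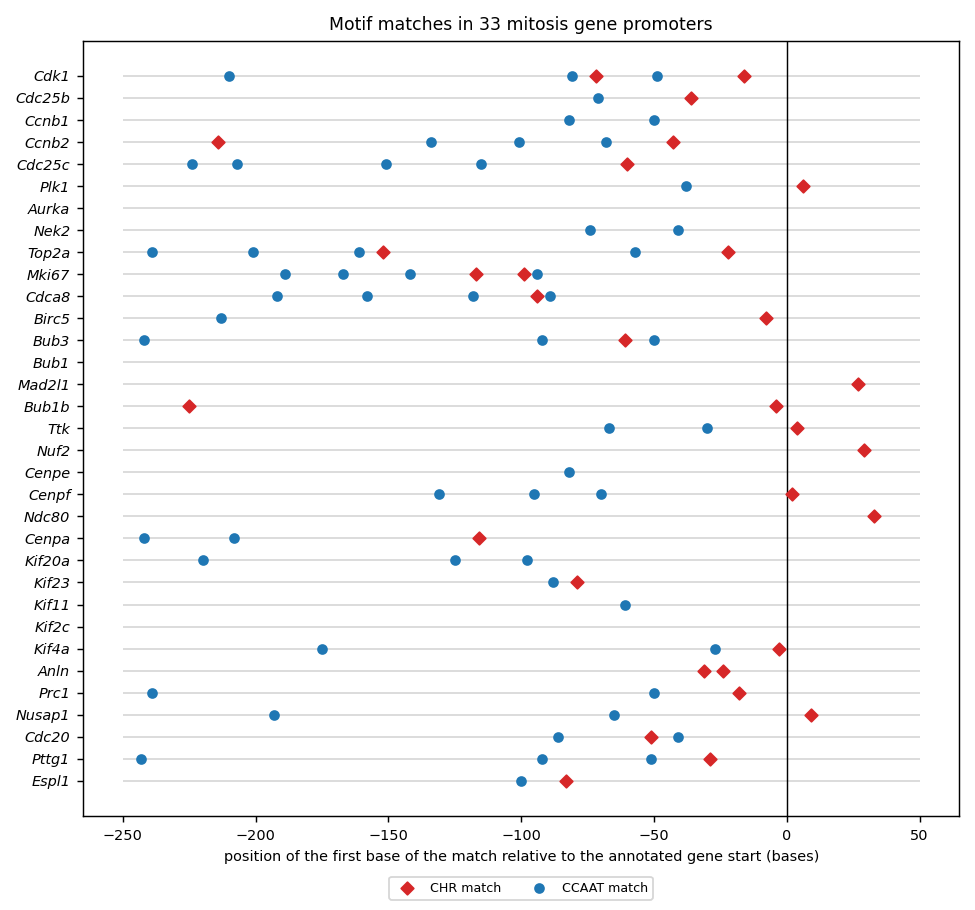
Positions of CHR matches (diamonds) and CCAAT matches (circles) in the promoters of 33 mitosis genes, with the horizontal axis giving bases from the annotated gene start and each row a gene grouped by role. Most CHR matches lie within 100 bases of the start, and Aurka, Bub1 and Kif2c have neither motif in the window.

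Of the 40 members, 33 matched a RefSeq promoter (250 bases before to 50 after the start). Ccna2, Incenp, Aurkb, Tpx2, Racgap1, Foxm1 and Ube2c did not match. CHR letters on either strand were present in 25 of the 33 promoters, or 75.8%, where 19.5% of the promoters of all 27457 genes with one held them. CCAAT was also present in 25 of the 33, where 37.7% of all promoters held it, and 2 or more CCAAT matches were present in 18, or 54.5%, against 11.5% of all. Both motifs occurred together in 20 members, or 60.6%, against 7.83% of all promoters. Aurka, Bub1 and Kif2c held neither, as did 50.6% of all promoters. The CHR match nearest the start lay within 100 bases of it in 24 members. These matches are descriptions of letters and not of binding, and the deposited data hold no measure of binding. The median log2 fold change was 0.057 over the members with a CHR match and -0.040 over the 8 without, where the median over all genes tested was -0.0049. The values overlapped, from -0.20 to 0.33 with a match and from -0.17 to 0.21 without. Members with no promoter here are in neither group, and whether the groups differ was not tested.

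The summed level of the group was slightly higher in si-GPD1L, by an amount that depended on the scale. The summed counts of the 40 genes were 914, 859 and 816 CPM (counts divided by the library total and scaled to a common size, with TMM factors) in si-NC replicates 1, 2 and 3 and 861, 904 and 936 in si-GPD1L replicates 1, 2 and 3. The means were 863 ± 49.1 (SD, n = 3) and 900.4 ± 38.0 (SD, n = 3), a log2 ratio of 0.061 with overlapping groups. The deposited TPM values scale each gene by its length and each library to the same total. They gave sums of 657, 655 and 607 TPM in si-NC and 684, 717 and 729 TPM in si-GPD1L. On the TPM scale all 3 si-GPD1L libraries lay above the si-NC libraries, with a log2 ratio of 0.15. The shift between scales also appears within a gene, where length is fixed, so it includes library scaling. Cenpf, for example, had means of 705 and 699 normalised counts in si-NC and si-GPD1L, but 8.95 and 9.40 TPM. Its TPM values were 8.75, 8.96 and 9.14 in si-NC and 9.23, 9.57 and 9.40 in si-GPD1L. These groups separated although its normalised counts overlapped and were not higher on average. The separation of the TPM sums therefore cannot be read as a trait of the mitosis genes, and the share of all genes that separate on this scale was not counted. In RNA from whole cultures, the share of dividing cells and the amount of these mRNAs in each dividing cell cannot be told apart.

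Most members varied in small steps around the control level. Over the 40 genes, the log2 fold changes (si-GPD1L over si-NC) ran from -0.20 for Mad2l1 to 0.33 for Espl1 with a median of 0.057, and 27 were above 0 and 13 below. Their median absolute log2 fold change was 0.088, where that of all genes tested was 0.15. The 95% confidence interval of every member lay within a 1.5-fold change in either direction, the widest bounds being 1.47 for Espl1 and 0.698 for Pttg1 as ratios of si-GPD1L to si-NC. The intervals of 26 members lay within 1.3-fold, while those of 10 reached past 1.3-fold higher and those of 4 past 1.3-fold lower. Raw counts of a member in a library ran from 63 to 1804, and the median standard error of the log2 fold change was 0.117, against 0.114 over all genes tested.

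**Figure D2:**
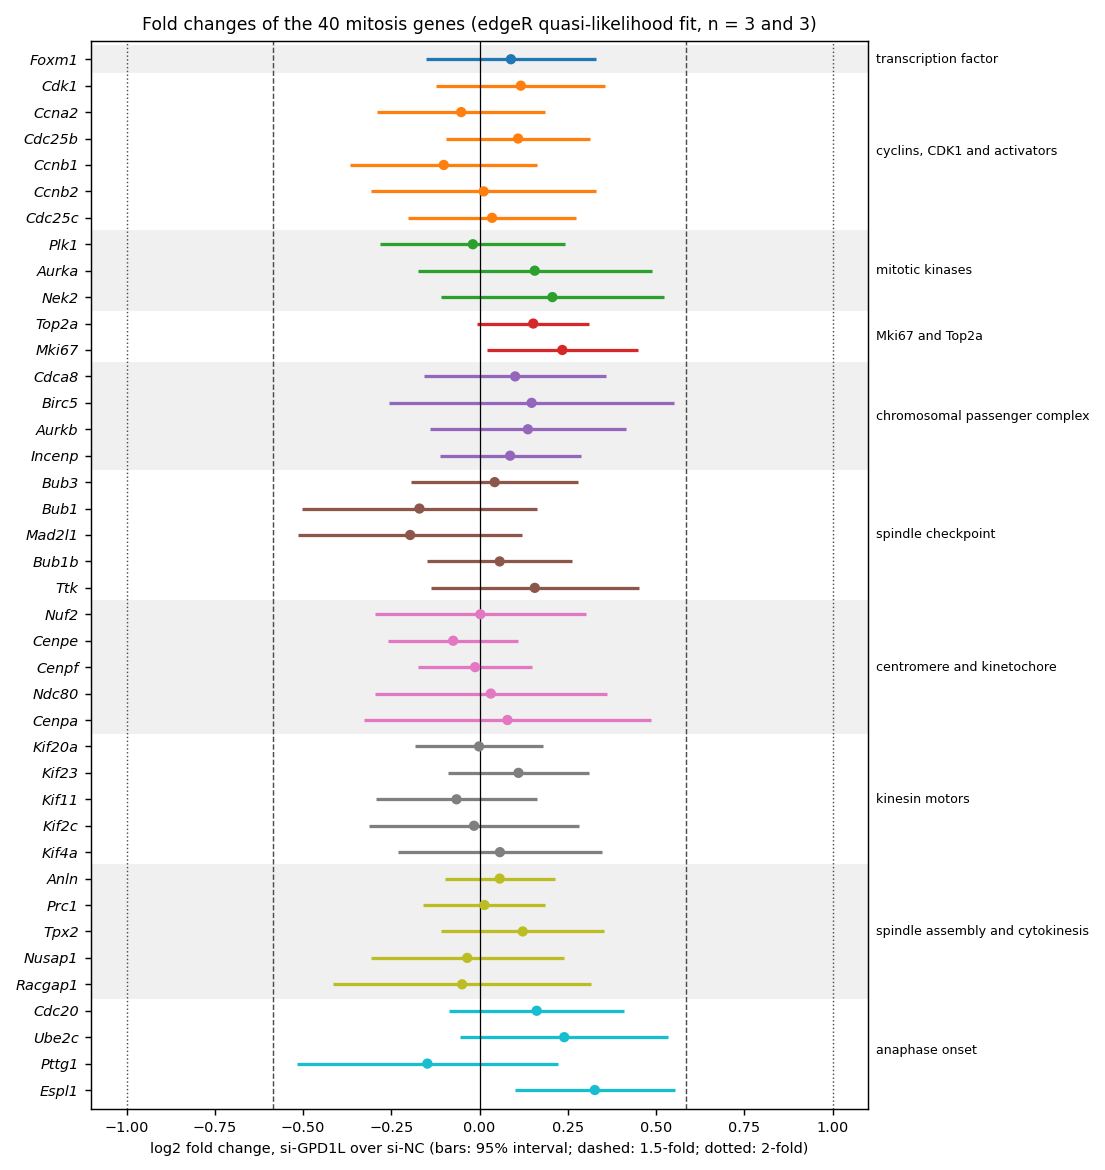
Log2 fold change of each of the 40 mitosis genes, si-GPD1L over si-NC, as a point with its 95% confidence interval, grouped and coloured by role; dashed lines mark 1.5-fold and dotted lines 2-fold in either direction. All 40 intervals lie between the dashed lines, and those of Mki67 and Espl1 lie wholly above 0.

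The size of the group's difference, and the number of members above 0, moved with the libraries used. Leaving out a library gave a log2 ratio of the CPM sums (0.061 with all libraries) of 0.10 without si-NC replicate 1, 0.023 without si-NC replicate 3, 0.093 when si-GPD1L replicate 1 was left out and 0.032 when replicate 3 of that group was. It was 0.058 without replicate 2 of either group, so the direction of the sum did not turn. Si-NC replicate 1 exceeded the other two si-NC libraries for 27 of the 40 members, or 67.5%, where the same held for 40.3% of all genes tested, and it was the highest of all 6 libraries for 18 members. Si-NC replicate 3 was the lowest of all 6 for 19. Without si-NC replicate 1, 34 members had a log2 fold change above 0, with a median of 0.11 and 7 unadjusted p-values under 0.05. Calls over all genes also rose in that fit, from 599 to 861 higher and from 346 to 670 lower. The share of all genes with an unadjusted p under 0.05 was 22.4% with all libraries and was not counted for that fit. Without si-NC replicate 3, 20 members had a log2 fold change above 0, with a median of -0.00054. With upper-quartile normalization the number above 0 was 24. Over all alternatives, the log2 fold change kept its sign for 21 members and turned at least once for 19. No member was called in any of these fits.

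**Figure D3:**
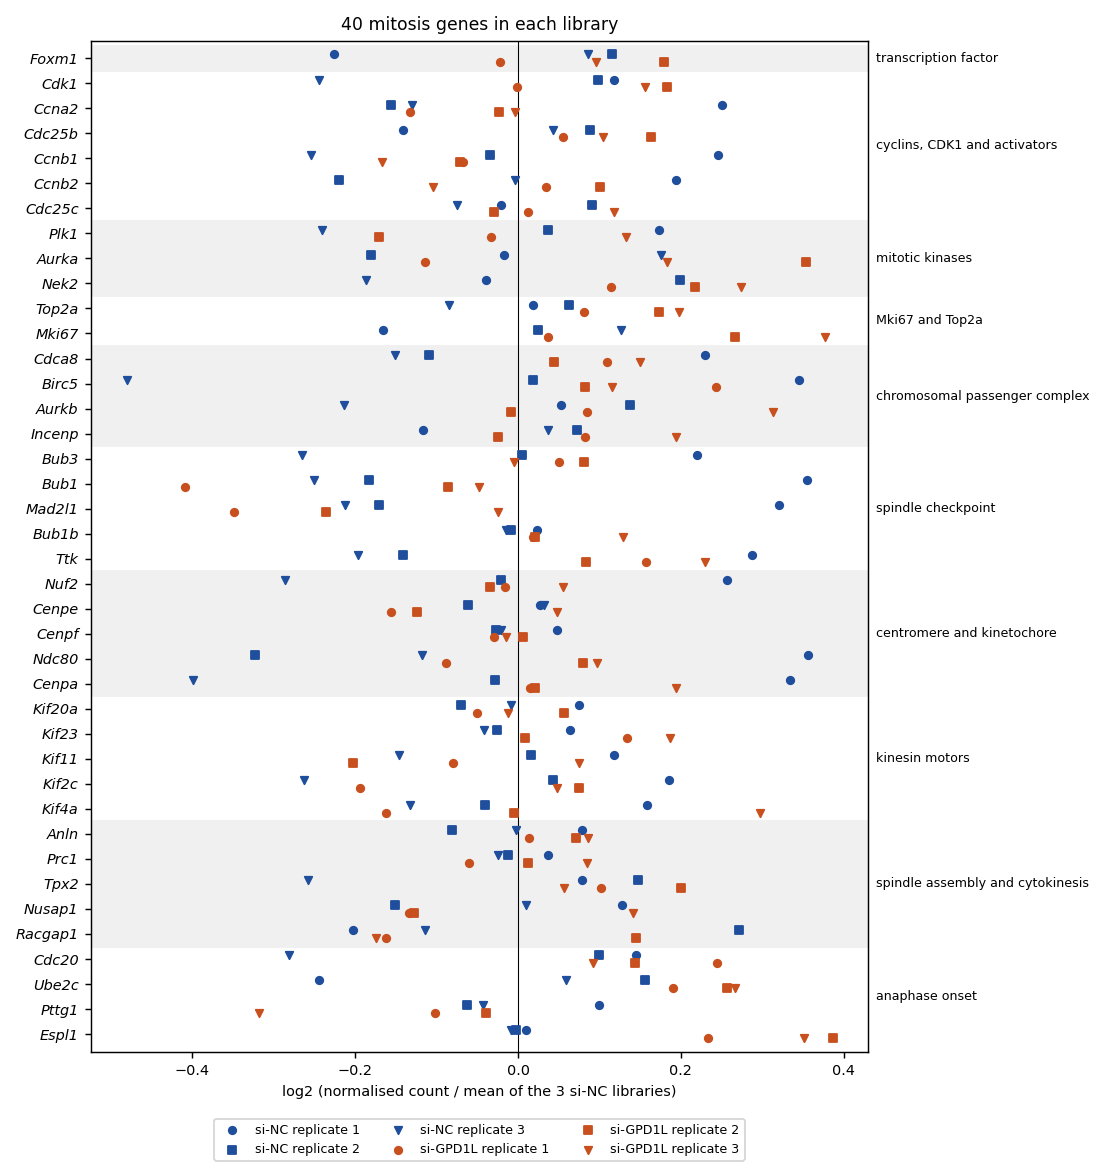
Log2 ratio of the normalised count in each library to the mean of the 3 si-NC libraries for the 40 mitosis genes, grouped by role; blue symbols are si-NC and orange symbols si-GPD1L, with a shape for each replicate. The si-NC libraries spread more widely than the si-GPD1L libraries for most members, and si-NC replicate 1 (blue circles) is often at the right.

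The si-NC libraries were more spread than the si-GPD1L libraries for 28 of the 40 members, close to the 66.0% of all genes tested for which this held, with a median coefficient of variation of 13.1% in si-NC and 6.11% in si-GPD1L, against 10.8% and 6.94% over all genes tested. The ratio of si-NC replicate 1 to the mean of the other two si-NC libraries ran from 0.783 for Ube2c to 1.49 for Ndc80. Bub1 at 1.49, Birc5 at 1.47, Cenpa at 1.45 and Mad2l1 at 1.43 lay near the top of that range. Foxm1 at 0.798, Racgap1 at 0.816 and Mki67 at 0.846 lay near the bottom. The median log2 ratio of that library to the other two was 0.14 over the members and -0.0011 over all genes tested, so the members lay higher there on the whole but not all of them.

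Per gene length, the members spanned a wide range of levels in si-NC. Bub3, a spindle checkpoint gene, was the highest at 66.0 ± 8.10 TPM (SD, n = 3), followed by Cdk1 at 41.6 ± 4.66 TPM and Cdc20 at 30.1 ± 3.84 TPM. Racgap1 at 4.92 ± 1.02 TPM, Nek2 at 4.87 ± 0.720 TPM and Espl1 at 3.67 ± 0.153 TPM were the lowest. In the order of mean TPM, neighbours were separated beyond the range of their libraries only between Bub3 and Cdk1, between Cdk1 and Cdc20 and between Nek2 and Espl1.

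**Figure D4:**
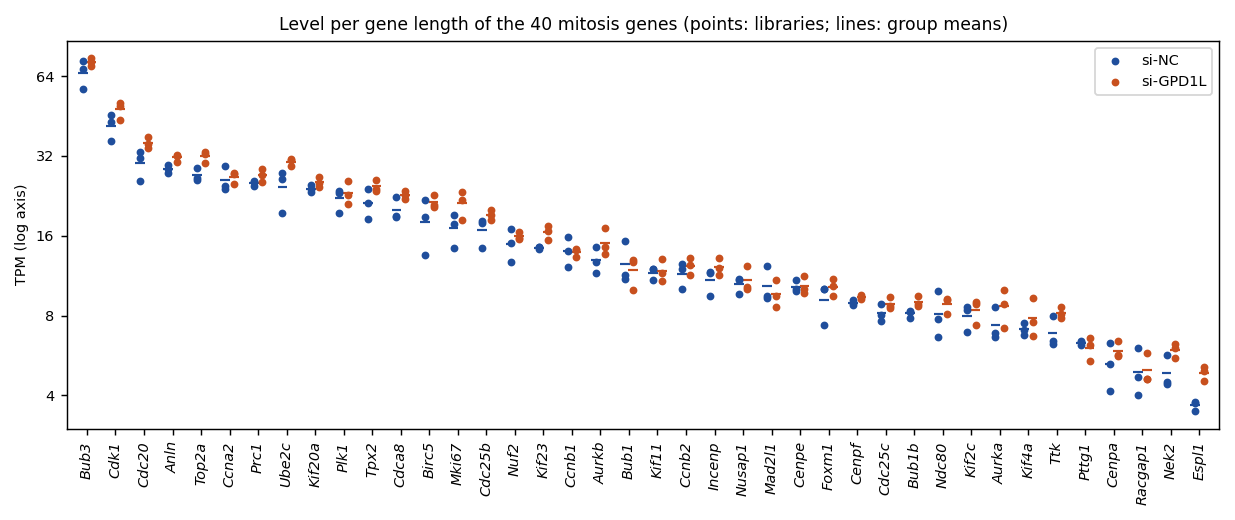
TPM (log axis) of the 40 mitosis genes in each library, ordered by the si-NC mean, with blue points for si-NC, orange points for si-GPD1L and short lines for the group means. Bub3 and Cdk1 stand above the rest and Espl1 below, while most neighbours overlap.

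Foxm1, the transcription factor that drives many genes of this group, lies at chr4:161685236-161697633 in rn6, the build of the deposited coordinates. Its normalised counts (counts scaled to the mean library size) were 292, 370 and 362 in si-NC and 336, 387 and 365 in si-GPD1L. The groups overlapped, with si-NC replicate 1 the lowest of the 6. The log2 fold change was 0.089 (SE 0.11, edgeR adjusted p = 0.691), and it was -0.012 without si-NC replicate 1. Foxm1 overlaps a long non-coding gene on the other strand over 1981 bases. Without a stated strand setting, reads from that stretch cannot be assigned to either gene.

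Among the cyclins, CDK1 and the CDC25 phosphatases that activate it, 4 of 6 members had log2 fold changes above 0, between -0.10 and 0.12, and 0 of 6 passed the test. Cdk1, the kinase that starts mitosis (chr20:20576341-20591510, rn6), had normalised counts of 466, 460 and 362 in si-NC and 429, 488 and 479 in si-GPD1L. The si-NC libraries enclosed the lowest si-GPD1L library, and the log2 fold change was 0.12 (SE 0.11, adjusted p = 0.577). Ccnb1, the cyclin B1 partner of CDK1 (chr2:30782133-30791106, rn6), had 429, 353 and 303 in si-NC and 345, 344 and 322 in si-GPD1L. All 3 si-GPD1L values lay inside the si-NC range, with a log2 fold change of -0.10 (SE 0.12, adjusted p = 0.678) that was 0.040 without si-NC replicate 1. Cdc25b, a phosphatase that removes the inhibitory phosphates of CDK1, had 380, 446 and 432 in si-NC and 435, 469 and 451 in si-GPD1L. Only si-NC replicate 2 reached past the lowest si-GPD1L library, with a log2 fold change of 0.11 (SE 0.093, adjusted p = 0.531).

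Ccna2, the cyclin A2 of S and G2 phase, had a log2 fold change of -0.052, Ccnb2, another B-type cyclin, 0.012, and Cdc25c, a phosphatase of mitotic entry, 0.036. The value of Ccnb2 is uncertain, since the deposited table also lists LOC100364016, a cyclin B2-like gene with 364 counts over the 6 libraries beside the 804 of Ccnb2, and reads of near-identical copies could have been split between them. Ccna2 overlaps Exosc9 on the other strand.

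The mitotic kinases Plk1, Aurka and Nek2 did not pass the test. Plk1, which drives mitotic entry and centrosome maturation, had normalised counts of 430, 391 and 322 in si-NC and 372, 338 and 418 in si-GPD1L. The si-GPD1L values all lay inside the si-NC range, with a log2 fold change of -0.019 (SE 0.12, adjusted p = 0.949). Nek2, a kinase of centrosome separation, had 116, 137 and 105 in si-NC and 129, 138 and 144 in si-GPD1L. Here only si-NC replicate 2 reached into the si-GPD1L range, and the log2 fold change was 0.21 (SE 0.14, adjusted p = 0.433). Aurka, the aurora kinase of the spindle poles, had a log2 fold change of 0.16 (adjusted p = 0.595) and overlaps Fam210b on the other strand.

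Mki67 and Top2a, the proliferation marker Ki-67 that coats mitotic chromosomes and the topoisomerase that untangles them, were among the members with the smallest p. Mki67 (chr1:207993895-208020454, rn6) had normalised counts of 1216, 1388 and 1489 in si-NC and 1399, 1641 and 1773 in si-GPD1L. The lowest si-GPD1L library lay inside the si-NC range and the other two above it. The log2 fold change was 0.23 (SE 0.098), a ratio of 1.18 with a 95% interval of 1.01 to 1.36, and edgeR's quasi-likelihood test gave an adjusted p of 0.182 (0.034 unadjusted). Top2a (chr10:86901467-86930947, rn6) had 1068, 1102 and 994.6 in si-NC and 1115, 1189 and 1210 in si-GPD1L. All 3 si-GPD1L libraries lay above the si-NC libraries by a narrow margin, with a log2 fold change of 0.15 (SE 0.073, adjusted p = 0.243). Without si-NC replicate 1 the log2 fold change of Mki67 was 0.16, and without si-NC replicate 3 it was 0.30, with an adjusted p of 0.230 and 0.0888.

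The chromosomal passenger complex corrects faulty attachments and steers cytokinesis, and its 4 members Aurkb, Birc5, Cdca8 and Incenp had log2 fold changes from 0.087 to 0.15, none past the test. Aurkb, its kinase, had normalised counts of 233, 247 and 193 in si-NC and 238, 223 and 279 in si-GPD1L. The groups overlapped, with si-GPD1L replicate 3 the highest, and the log2 fold change was 0.14 (SE 0.13, adjusted p = 0.573). Cdca8, the subunit borealin, had 299, 236 and 230 in si-NC and 275, 263 and 283 in si-GPD1L. Si-NC replicate 1 lay above all si-GPD1L libraries and the other two si-NC libraries below them. The log2 fold change of Cdca8 was 0.10 (SE 0.12, adjusted p = 0.672), and it was 0.23 without si-NC replicate 1 (adjusted p = 0.209). Birc5, the subunit survivin, spread most among the si-NC libraries, at 159, 127 and 89.9 normalised counts. Incenp, the scaffold of the complex, overlaps Fads2 on the same strand over 29937 bases, so its reads may be shared with that gene.

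The spindle checkpoint genes included Mad2l1 and Bub1, the members with the lowest log2 fold changes of the 40, and both were highest in si-NC replicate 1. Mad2l1, the MAD2 protein that holds CDC20, had normalised counts of 396, 282 and 274 in si-NC and 249, 269 and 312 in si-GPD1L. Si-NC replicate 1 was far above the other five libraries, which mixed. The log2 fold change was -0.20 (SE 0.15, adjusted p = 0.462), and it was -0.0044 without that library. Bub1, a checkpoint kinase, showed the same shape, with 569, 392 and 374 in si-NC and 335, 419 and 431 in si-GPD1L, and had a log2 fold change of -0.17 (adjusted p = 0.557) that was 0.048 without si-NC replicate 1. Bub3, the WD-repeat partner of BUB1, had 806, 694 and 575 in si-NC and 716, 732 and 689 in si-GPD1L. Its si-GPD1L libraries lay inside the si-NC range, with a log2 fold change of 0.043 (SE 0.11, adjusted p = 0.858). Bub1b, which encodes BUBR1, and Ttk, the kinase MPS1, had log2 fold changes of 0.057 and 0.16.

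Among the centromere and kinetochore genes, 3 of 5 had log2 fold changes above 0 and 0 of 5 passed the test. Cenpe, a kinesin that carries chromosomes to the spindle equator, had normalised counts of 669, 629 and 671 in si-NC and 589, 602 and 678 in si-GPD1L. The groups overlapped, with si-GPD1L replicate 3 the highest, and the log2 fold change was -0.075 (SE 0.085, adjusted p = 0.656). Nuf2, which forms the microtubule-binding complex with NDC80, had 250, 207 and 172 in si-NC and 207, 205 and 218 in si-GPD1L. The si-GPD1L values sat in the middle of the si-NC range, with a log2 fold change of 0.0023 (SE 0.14, adjusted p = 0.995). Ndc80 itself had 380, 237 and 274 in si-NC and 279, 314 and 318 in si-GPD1L, for a log2 fold change of 0.032. Cenpa, the histone that marks centromeres, and Cenpf, a kinetochore protein of late G2, had log2 fold changes of 0.079 and -0.013.

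The kinesin motors had log2 fold changes from -0.065 to 0.11. Kif20a, a motor of the central spindle, had normalised counts of 580, 524 and 547 in si-NC and 532, 572 and 546 in si-GPD1L. All 3 si-GPD1L libraries lay inside the si-NC range, with a log2 fold change of -0.0014 (SE 0.083, adjusted p = 0.995), and it overlaps Cdc23 on the other strand. Kif23, the motor subunit of centralspindlin, had 406, 381 and 377 in si-NC and 426, 390 and 442 in si-GPD1L. Only si-GPD1L replicate 2 lay inside the si-NC range, and the log2 fold change was 0.11 (SE 0.091, adjusted p = 0.516). Kif11, the motor that pushes spindle poles apart, had a log2 fold change of -0.065, Kif2c, which depolymerises microtubules, -0.016, and Kif4a, a chromosome-bound motor, 0.058.

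Of the spindle assembly and cytokinesis genes, Anln, the actin-binding anillin of the cleavage furrow, had normalised counts of 1135, 1016 and 1073 in si-NC and 1085, 1129 and 1140 in si-GPD1L. Si-NC replicate 1 lay among the si-GPD1L libraries, and the log2 fold change was 0.057 (SE 0.072, adjusted p = 0.692). The table also lists a like gene, Anlnl1, with 571 counts over the 6 libraries beside 6580 for Anln. Tpx2, which activates aurora A on the spindle, had 594, 623 and 470 in si-NC and 604, 646 and 585 in si-GPD1L. Only si-NC replicate 3 stood below the si-GPD1L range, and the log2 fold change was 0.12 (SE 0.11, adjusted p = 0.539). Prc1, which bundles the central spindle, Nusap1, a spindle microtubule protein that overlaps Oip5 on the other strand, and Racgap1, the partner of KIF23, had log2 fold changes of 0.014, -0.035 and -0.049.

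Of the 4 genes of anaphase onset, 3 had log2 fold changes above 0. Espl1, which encodes separase (chr7:143896890-143923868, rn6), had normalised counts of 202, 200.2 and 199 in si-NC and 236, 262 and 256 in si-GPD1L. The si-NC libraries were nearly equal and all 3 si-GPD1L libraries lay above them. The log2 fold change was 0.33 (SE 0.10), a ratio of 1.25 with a 95% interval of 1.07 to 1.47, and the adjusted p of 0.0837 from edgeR's quasi-likelihood test missed the threshold. Over the alternatives its lowest adjusted p was 0.0608. Ube2c, the ubiquitin-conjugating enzyme of the anaphase-promoting complex, had 123, 162 and 151 in si-NC and 166, 174 and 175 in si-GPD1L. These groups were separate by a small margin, with si-NC replicate 1 the lowest, and the log2 fold change was 0.24 (SE 0.14, adjusted p = 0.323). Cdc20, the activator of that complex, had 463, 449 and 345 in si-NC and 497, 463 and 447 in si-GPD1L. Si-NC replicate 3 stood below the rest, and the log2 fold change was 0.16 (SE 0.11, adjusted p = 0.434). Pttg1, the separase inhibitor securin, had 84.1, 75.2 and 76.2 in si-NC and 73.1, 76.4 and 63.0 in si-GPD1L, for a log2 fold change of -0.15 (SE 0.17, adjusted p = 0.663).

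Other cell cycle genes were read from lists beside the 40. Of 88 further G2 and M genes tested, 2 were higher in si-GPD1L, Tubb4b, a tubulin, and Iqgap3, a scaffold protein, and 14 had an unadjusted p under 0.05, with a median log2 fold change of 0.041 over the list. The share higher was below the 4.03% of all genes tested. Tubb4b went from 1973 ± 8.28 to 2460 ± 102 normalised counts (SD, n = 3 and 3; log2 fold change 0.32, edgeR adjusted p = 0.0135). Iqgap3 had 243, 287 and 258 in si-NC and 329, 360.3 and 371 in si-GPD1L (log2 fold change 0.43, edgeR adjusted p = 0.0295). Of the 14 core subunits of the anaphase-promoting complex, 0 passed edgeR's test and 3 had an unadjusted p under 0.05, with a median of -0.060. Over all genes tested, 6.36% passed and 22.4% had an unadjusted p under 0.05, so neither list stood above these shares.

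Earlier phases of the cycle were also represented. Of 50 DNA replication genes of S phase, 3 were higher in si-GPD1L, Mcm3, Dnmt1 and Mcm5, a share near the 4.03% of all genes tested that were higher, and 15 had an unadjusted p under 0.05, against 22.4% of all genes. The median log2 fold change of that list was 0.19, where the mitosis genes had 0.057. Of 12 G1 cyclins, CDKs and CDK inhibitors tested, only Ccnd1, the cyclin D1 that drives G1, was higher, and 5 had an unadjusted p under 0.05. Its normalised counts were 2297, 2426 and 2559 in si-NC and 5410, 4963 and 4566 in si-GPD1L, far apart, with a log2 fold change of 1.04 (SE 0.081, edgeR adjusted p = 2.95e-06). Of 22 genes of the DREAM, RB, E2F and B-MYB group, only Mybl2, which encodes the B-MYB that acts on CHR promoters, was higher, and 2 had an unadjusted p under 0.05. Mybl2 had 378, 351 and 371 in si-NC and 482, 495 and 490 in si-GPD1L, and the log2 fold change was 0.42 (SE 0.085, edgeR adjusted p = 0.0129). Of these calls only that of Ccnd1 held in all 13 alternatives, while Mybl2, Tubb4b, Iqgap3, Dnmt1, Mcm5 and Mcm3 lost theirs when at least 1 library was left out. Whether these lists differed from the mitosis genes was not tested.

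**Figure D5:**
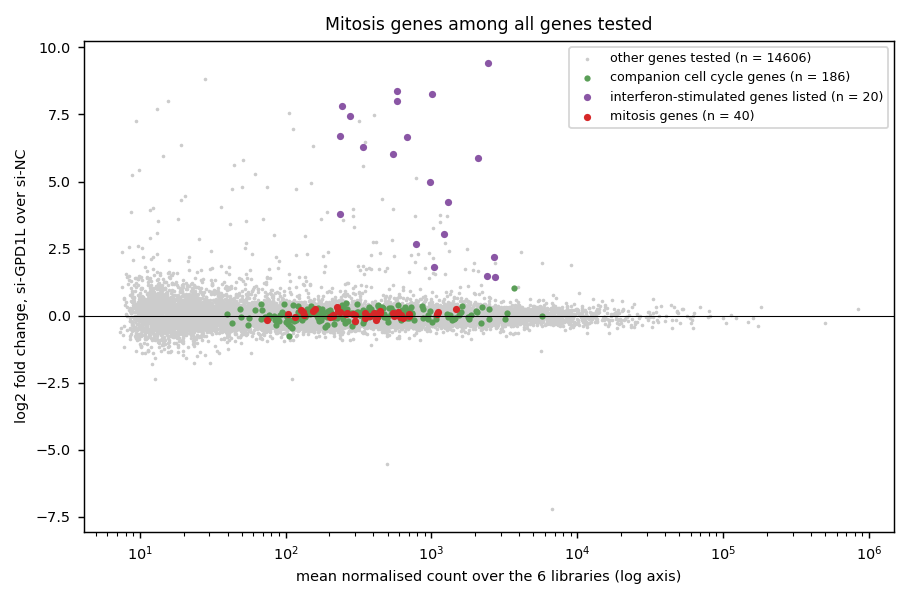
Log2 fold change (si-GPD1L over si-NC) against mean normalised count over the 6 libraries (log axis) for all 14852 genes tested, with mitosis genes in red, companion cell cycle genes in green and listed interferon-stimulated genes in purple. The red points lie in a narrow band at 0, while the purple points lie between 1.43 and 9.42.

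Values of the whole series that touch these results are few. The library totals ran from 16892255 to 20149732 counts, of which the mitosis genes took 0.0813% to 0.0930%. The target Gpd1l had 262, 333 and 314 normalised counts in si-NC and 220.5, 208 and 303 in the 3 labelled si-GPD1L, so that replicate 3 of these lay inside the si-NC range (log2 fold change -0.31, edgeR adjusted p = 0.234; exact permutation p = 0.20, where 0.10 is the smallest possible). With that replicate left out, Gpd1l stood at -0.50 on the log2 scale (edgeR adjusted p = 0.0733), and leaving out each of the other libraries gave -0.41 to -0.21. All 20 listed interferon-stimulated genes were called higher, with a median log2 fold change of 5.95, where 4.03% of all genes tested were higher. That list was chosen with earlier results of these data known, so its count is no test. With at least 10 counts required in every library, 11 of them were called, since some lay near 0 in si-NC. Summed fibroblast markers ran from 73486 to 93387 CPM in si-NC and from 88316 to 93754 in si-GPD1L, with 3 of 12 lower (Lum, Dcn and Fbln1). Gene by gene, their median log2 fold change was -0.14, with 3 of 12 above 0. Summed cardiomyocyte markers ran from 2051 to 2155 CPM and from 1860 to 2036, with 1 of 12 lower (Pln). Endothelial markers ran from 101 to 129 and from 143 to 149.7, with 5 of 11 tested higher. For these marker counts, the shares over all genes tested were 4.03% higher and 2.33% lower. Macrophage markers ran from 152 to 166 and from 127 to 186 with 0 of 12 called by edgeR and 1 at an unadjusted p under 0.05, and smooth muscle and pericyte markers from 909 to 1055 and from 907 to 1007 with 1 of 10 higher and 1 lower. No listed marker was at 0 in all 6 libraries, and their part in the mitosis values was not tested.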

How the data were processed

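Per the labels and the study's methods, poly(A) RNA of atrial fibroblasts was sequenced in 3 si-NC and 3 si-GPD1L libraries. The authors deposited whole-number read counts for 40154 genes and 55760 transcripts, and TPM values, which divide those counts by the length of each gene and bring every library to the same total. The submitters' processing notes name bcl2fastq, HISAT2 2.1.0, HTSeq 0.12.4 and the rn6 genome. The strand setting is not given in the sources used here. The authors' files of fold changes, p-values and GO and KEGG terms between the groups were not used.

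Samples were grouped by their labels. In R 4.3.3, edgeR 4.0.16 kept 14852 genes by filterByExpr, scaled libraries by TMM and compared si-GPD1L with si-NC by the two-sided quasi-likelihood F test, with Benjamini-Hochberg adjustment over all genes tested. A gene was called at an adjusted p under 0.05, and the stricter rule adds an absolute log2 fold change over 1. Normalised counts were scaled to the mean library total of 18397688. The depth of 16892255 to 20149732 counts per library gave each member 63 to 1804 counts. For Gpd1l an exact permutation test was added with scipy 1.17.1. The test was first tried on simulated counts with planted changes of 1.5-fold or more. These were larger than the fold change of any member, so the trial does not show how often changes of that smaller size would be called.

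Alternatives were DESeq2 1.42.0 (size factors and Wald test), upper-quartile normalization, edgeR's exact test, other count filters, a replicate block, each library left out in turn, the transcript table and deposited TPM. Members with values in each library were those past the test, Mki67, Top2a, Cdk1, Ccnb1, Plk1 and Foxm1, and in each role the member with the smallest adjusted p and that with the highest TPM. Bub1, Ndc80, Ube2c, Birc5 and Pttg1 were added, and the 1.3-fold bound was set, after the values were seen. The members, the companion lists and the marker lists were chosen with earlier results of these data known. Motifs were searched in RefSeq promoters of GRCr8. Figures were drawn with matplotlib 3.10.9.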

Additional observations from a re-analysis of the deposited data

How the results depend on the processing

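No mitosis gene was called in any alternative, and of the log2 fold changes of the 20 genes named by rule under the alternatives, 247 kept their sign and 13 did not. With the other tests, DESeq2's Wald test called 2 companion cell cycle genes lower (0 in the fit reported), and edgeR's exact test called 13 higher (7 in the fit reported), 1 lower and 640 of all genes lower (346). Without a filter beyond 1 count, 13 companion genes were higher and 4 lower, with 1055 of all genes higher (599) and 874 lower. With at least 10 counts in every library, 11 interferon-stimulated genes were higher (20), since this filter drops genes near 0 in si-NC. With the stricter rule of a log2 fold change over 1, 220 of all genes were higher and 20 lower. From deposited TPM, the log2 ratio of the summed mitosis genes was 0.15 (0.061). Kif20a had 0.0015 with at least 10 counts in every library, and Nuf2 had -0.023 with upper-quartile normalization.

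With each library left out in turn, between 1 and 10 companion genes were higher and between 0 and 3 lower, and between 299 and 861 of all genes were higher and between 53 and 670 lower. In these fits Ccnb1 had log2 fold changes of -0.22 to 0.040, and the values ran from -0.075 to 0.17 for Bub3, from -0.13 to 0.077 for Plk1, from -0.036 to 0.037 for Kif20a, from -0.12 to 0.15 for Nuf2 and from -0.012 to 0.15 for Foxm1. The lowest counts of all genes came without si-GPD1L replicates 1 and 2, and the highest without si-NC replicate 1. The cause was not tested.

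The replicate block called 0 mitosis genes, 9 companion genes higher and 1 lower, without Mcm3, and 560 of all genes higher and 361 lower. Libraries with the same number did not deviate together (r across genes of -0.014, -0.0060 and 0.043). Pairs with unlike numbers ran from -0.044 to 0.048. These values cannot show whether libraries with the same number share a culture, animal or batch. At this depth and spread, the 95% intervals, each taken for a single gene, lay within 1.5-fold for all 40 members and within 1.3-fold for 26. They come from the fit with all libraries and measure only the spread between these libraries, which may be technical.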
